A study of Mus musculus with 6 samples.

Results

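Of the 5099 regions on chromosomes 1 to 19 and X that carried a peak in each of the 3 Onecut3-OE FLAG replicates, 697 lay deep inside a shorter gene. These regions, called deep regions of shorter genes here, had their midpoint inside a protein-coding gene and more than 3 kb from every gene end, and the longest gene that held the midpoint spanned less than 100 kb. They made up 13.7% of the shared regions (95% exact binomial interval 12.7 to 14.6, counting error only), and all places together held 50844 merged regions, most of them in 1 list. The members were chosen by their peak calls, so every fold, fragment count and q value below is a description of chosen regions and not a test of them.

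The cells were mouse embryonic fibroblasts (MEFs), connective-tissue cells grown out of embryos, of C57BL/6 strain and p53 KO in every group, so that all libraries share the loss of p53. Onecut3 was expressed from the Retro-X Tet-One retroviral system and induced with 100 ng/mL doxycycline in the Onecut3-OE group, and the control cells received no doxycycline. Chromatin from the 3 Onecut3-OE replicates was precipitated with the ANTI-FLAG M2 antibody. The series also has 1 library each of control FLAG, Onecut3-OE input and Onecut3-OE IgG, which were not analysed here. The signal that the antibody gives without Onecut3 was therefore not subtracted, and the level is that of a retroviral vector rather than of the native gene. No source used here states whether the replicates were separate cultures, so the spread between them may be technical. No expression was analysed, and the cell type was not checked against marker RNA.

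ONECUT3 belongs to the CUT homeobox family, whose members pair a CUT domain with a homeodomain and bind short AT-rich DNA words related to ATTGAT and ATCGAT. The family is best known from liver, pancreas and nervous system, where the related ONECUT1 and ONECUT2 help to set cell identity. Regions deep inside genes commonly include intronic enhancers and internal promoters, from which a shorter transcript of the gene or another RNA can begin.

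Sequence could be read where a deep region fell on an internal promoter. Among the 697 members, 17 (2.44%, 95% exact binomial interval 1.43 to 3.88) overlapped 19 promoter windows of RefSeq, each running from 250 bases before a gene's start to 50 after it, on GRCm38.p6. The table gave a window for 78.8% of the host genes, so 17 is a lower count. In 9 of the windows all 3 summits fell inside. Of these 9, 6 held the word ATTGAT or ATCGAT on either strand, and these 6 are printed, together with that of Parp11 as one without it. Capitals mark the word, which reads ATCAAT where ATTGAT is on the opposite strand.

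The 6 windows belong to Mpp2, a membrane-associated guanylate kinase (chr11:102082435-102082734, minus strand), to LOC115486533, a gene inside Rgma, whose product is a repulsive guidance molecule and BMP co-receptor (chr7:73391253-73391552, plus strand), to Tmem144, a transmembrane protein (chr3:79842630-79842929, minus strand), to Gm36358 inside D630023F18Rik (chr1:65112033-65112332, plus strand), to Gm10584 inside Chst15, a sulfotransferase of chondroitin sulfate (chr7:132315414-132315713, plus strand), and to Cenpt, a kinetochore protein that links centromeric chromatin to the spindle (chr8:105851959-105852258, minus strand). The window of Parp11, an ADP-ribosyltransferase, lies at chr6:127453377-127453676, plus strand.
Mpp2: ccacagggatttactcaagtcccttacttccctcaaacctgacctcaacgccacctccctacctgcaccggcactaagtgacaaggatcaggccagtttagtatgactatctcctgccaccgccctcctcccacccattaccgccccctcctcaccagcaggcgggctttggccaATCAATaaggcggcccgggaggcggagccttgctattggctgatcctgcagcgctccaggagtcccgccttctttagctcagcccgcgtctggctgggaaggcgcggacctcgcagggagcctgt
LOC115486533: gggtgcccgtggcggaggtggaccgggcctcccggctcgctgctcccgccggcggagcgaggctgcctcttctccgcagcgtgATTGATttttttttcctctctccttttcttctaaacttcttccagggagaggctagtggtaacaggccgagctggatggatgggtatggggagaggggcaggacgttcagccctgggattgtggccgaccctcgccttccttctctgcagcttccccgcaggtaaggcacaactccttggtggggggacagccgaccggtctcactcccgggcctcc
Tmem144: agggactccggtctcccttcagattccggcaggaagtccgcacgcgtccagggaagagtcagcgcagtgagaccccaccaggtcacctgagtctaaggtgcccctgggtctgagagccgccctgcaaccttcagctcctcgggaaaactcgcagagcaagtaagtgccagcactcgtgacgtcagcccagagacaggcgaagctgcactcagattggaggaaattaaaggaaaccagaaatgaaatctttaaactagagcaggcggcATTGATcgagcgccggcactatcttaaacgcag
Gm36358: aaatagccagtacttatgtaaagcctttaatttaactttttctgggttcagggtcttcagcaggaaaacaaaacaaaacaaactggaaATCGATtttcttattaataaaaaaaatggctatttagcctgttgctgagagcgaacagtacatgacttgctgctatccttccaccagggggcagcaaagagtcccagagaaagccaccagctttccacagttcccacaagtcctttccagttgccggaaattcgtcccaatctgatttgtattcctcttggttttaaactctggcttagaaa
Gm10584: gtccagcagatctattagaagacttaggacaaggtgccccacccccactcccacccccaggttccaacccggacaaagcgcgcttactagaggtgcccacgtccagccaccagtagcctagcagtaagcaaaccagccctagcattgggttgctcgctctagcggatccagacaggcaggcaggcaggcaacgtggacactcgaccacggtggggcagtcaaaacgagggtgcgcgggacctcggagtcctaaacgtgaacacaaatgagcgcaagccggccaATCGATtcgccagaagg
Cenpt: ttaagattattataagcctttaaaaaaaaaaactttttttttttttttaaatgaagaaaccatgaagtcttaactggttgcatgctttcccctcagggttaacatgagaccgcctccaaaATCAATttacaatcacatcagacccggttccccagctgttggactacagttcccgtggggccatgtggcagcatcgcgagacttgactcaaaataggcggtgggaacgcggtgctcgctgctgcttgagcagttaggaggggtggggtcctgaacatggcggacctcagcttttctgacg
Parp11: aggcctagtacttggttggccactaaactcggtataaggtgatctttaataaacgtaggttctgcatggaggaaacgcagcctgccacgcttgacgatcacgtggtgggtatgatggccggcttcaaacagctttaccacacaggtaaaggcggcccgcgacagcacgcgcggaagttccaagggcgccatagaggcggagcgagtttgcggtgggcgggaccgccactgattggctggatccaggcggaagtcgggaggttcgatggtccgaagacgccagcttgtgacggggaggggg

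The word lay close to the point of highest signal in these 6 windows. Its centre was 0.5 to 34.5 bp from the middle one of the 3 summits, with a median of 7.0 bp. In Mpp2 it was 0.5 bp away, in the window of LOC115486533 2.5 bp, in Tmem144 5.5 bp, in Gm36358 8.5 bp, in Gm10584 11.5 bp and in Cenpt 34.5 bp. In Mpp2 and Gm10584 the word overlaps a CCAAT box, the word bound by the ubiquitous factor NF-Y, whereas in the other 4 windows it is free of one. The folds at these members were moderate. They were 4.08, 4.67 and 4.84 in replicates 1, 2 and 3 at Mpp2, 4.84, 4.73 and 4.46 at the window inside Rgma, and 5.28, 3.79 and 6.79 at Cenpt. The fold compares the number of ChIP fragments over the summit with the number that the background predicts, after 1 is added to both.

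**Figure D1:**
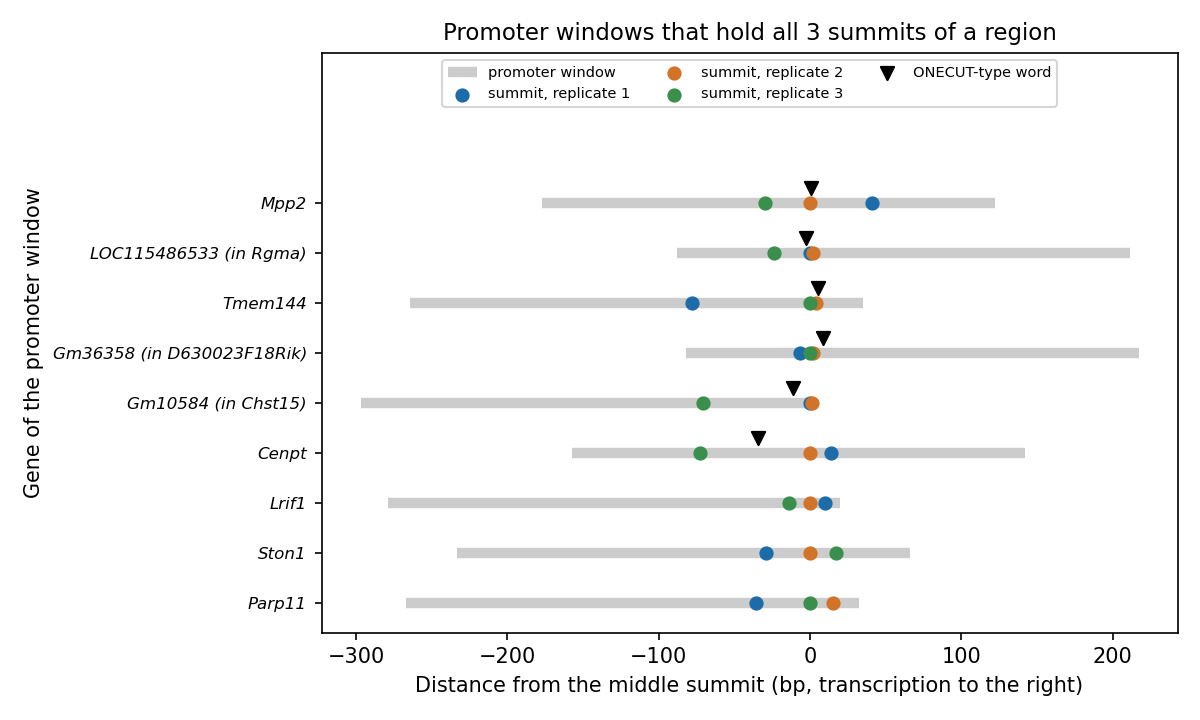
Each bar is a promoter window of 1 gene, placed by its distance in bp from the middle one of the 3 summits, with transcription running to the right. Circles are the summits of the 3 replicates and triangles the ONECUT-type word, and in 6 of the 9 windows the word lies within 34.5 bp of the middle summit.

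The word was found in 66.7% of the 9 windows that held all summits (95% exact binomial interval 29.9 to 92.5), and in 1 of the 10 windows that the regions only touched or whose summits fell partly outside. In that 1 window, of Rusf1, no summit fell inside and the word was 271.5 bp from the middle summit. Over all 32851 promoter windows of the table it was present in 8.40%. Counting only words free of a CCAAT box, the shares were 44.4% of the 9 windows and 7.91% of all windows. The other places held the word as well. Deep inside longer genes, 6 of 6 windows with all summits inside held the word, and at gene ends it was 103 of 194 (53.1%, interval 45.8 to 60.3). Regions in 1 list only, deep inside shorter genes, gave 10 of 29 windows (34.5%, interval 17.9 to 54.3), and at gene ends 63 of 367 (17.2%). Regions in 2 lists, deep inside shorter genes, gave 3 of 6 (50.0%, interval 11.8 to 88.2). A region in fewer lists has fewer summits that must fall inside, so these shares and those of shared regions rest on unlike criteria. The interval of the 9 windows covers the share at gene ends, and no difference between places was tested. The shares depend on the letters chosen: ATTGAT alone was in 44.4% of the 9 windows and in 7.54% of all windows, and ATCGAT alone in 22.2% and 0.925%.

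Other words were searched in the same windows. Of the 19 windows that members overlapped, 10 held a GC box (GGGCGG, 35.7% of all windows) and 8 a CCAAT box (CCAAT, 37.4%). A TEAD-type word (GGAATG, 14.7%) was in 4, an AP-1-type word (TGANTCA, 7.81%) in 1 and an E-box (CACGTG, 7.15%) in 1. In the 9 windows with all summits inside, a CCAAT box was in 7, the ONECUT-type word in 6 and a GC box in 5. The TEAD-type word, the AP-1-type word and the E-box were in 1 each. The windows of Parp11, Ston1 and Lrif1, which lack the ONECUT-type word, each held a CCAAT box. The median GC content of the 19 windows was 56.7% against 52.7% of all windows. A match is only a description of these letters. Of the 19 windows, 13 belong to the host gene itself and touch 12 members, where the region reaches the window of a start inside the annotated span. Among them, the windows of Nf2, Psen2, Rusf1, Cox7a2 and Rab13 and the other window of Tmem144 held no summit, and that of Bcl9 held 1. The regions overlap these windows only in part.

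The 3 lists held 31600, 12856 and 24822 peaks, and their relative ChIP depths, as the genome-wide background of the lists gives them, were 0.877, 1 and 0.807, so the shortest list came from the deepest library. At the members the summits carried a median of 14, 16 and 13 fragments in replicates 1, 2 and 3, over a background floor of 2.30, 2.47 and 2.14 fragments, so a typical region rests on few fragments. The median fold was 4.03, 4.25 and 3.99. Deep regions of longer genes had 3.94, 4.18 and 3.91, and regions at gene ends 4.24, 4.46 and 4.27. A fold of at least 5 in all 3 lists was reached by 67 members (9.61%, against 8.86 percent of all shared regions), and a q of at most 0.05 in all 3 by 398 (57.1%, against 57 percent). Both shares are near the level of all shared regions. The members were 232 to 1100 bp wide with a median of 382 bp, and the 3 summits of a member lay a median of 65 bp apart and within 100 bp in 70.9%. The highest fold of a member was a median of 1.37 times its lowest, under 1.5 times in 447 members and at least 2 times in 35. Replicate 1 gave the highest fold at 209 members, replicate 2 at 261 and replicate 3 at 227. Folds depend on depth, and replicate 2, highest most often, was the deepest library, so these counts do not compare the libraries.

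The strongest member lay inside Irs2, which encodes an adaptor that passes the insulin signal on from its receptor (chr8:10993681-10994278, 9.30 kb from the nearer end of the gene). Its fold was 10.7, 10.3 and 8.88 in replicates 1, 2 and 3 (9.96 ± 0.951, SD, n = 3), from 37, 39 and 29 fragments. The next was in Adam19, a membrane-bound metalloprotease (chr11:46065490-46066047), with folds of 8.48, 10.6 and 9.69. The third, in St6galnac1, which adds sialic acid to O-linked sugar chains (chr11:116771934-116772611), had 8.63, 8.29 and 11.5 and lies 3.23 kb from a gene end, just inside the limit. In these 3 members the replicates ranked differently, with replicate 1 highest in Irs2, replicate 2 in Adam19 and replicate 3 in St6galnac1.

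The member in Incenp ranked 6 of 697 and 38 of all shared regions (chr19:9886775-9887175, 12.5 kb from the nearer gene end). INCENP is the scaffold of the chromosomal passenger complex, which brings Aurora B kinase to centromeres and the midzone, and it is among the genes the study follows. The folds were 7.41, 7.80 and 9.58 (8.27 ± 1.16, SD, n = 3), the fragments 27, 31 and 33, and the background 2.78, 2.96 and 2.55, above the floor in each list. Replicate 3 stood above the others at this member. Cdca8, another subunit of the complex, had 12.5 kb of deep territory and no member, which means no such region in all 3 lists. The study reports Onecut3 binding in the body of Cdca8, so the lack of a member is not a lack of binding. Aurkb (0.039 kb) and Birc5 (0.505 kb) have nearly no deep territory, and Trp53 and Onecut3 held no member either.

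The rest of the 10 members with the highest mean rank had folds between 7.24 and 10.3. They lie in Zfp91, a zinc finger protein and ubiquitin ligase (7.79, 9.38 and 10.3 in replicates 1, 2 and 3), in Rsad1, a radical SAM domain protein (8.99, 7.72 and 8.26), and in Stambpl1, a deubiquitinase (7.65, 8.69 and 7.36). Rnf19a, a RING-type ubiquitin ligase, had 7.87, 7.51 and 8.28. Cdkl4, a cyclin-dependent kinase-like protein, had 9.39, 7.24 and 7.96. Gucy2g, a receptor guanylate cyclase, had 8.41, 7.29 and 7.36. Of the 10, 4 are on chromosome 19 (Zfp91, Incenp, Stambpl1 and Gucy2g).

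**Figure D2:**
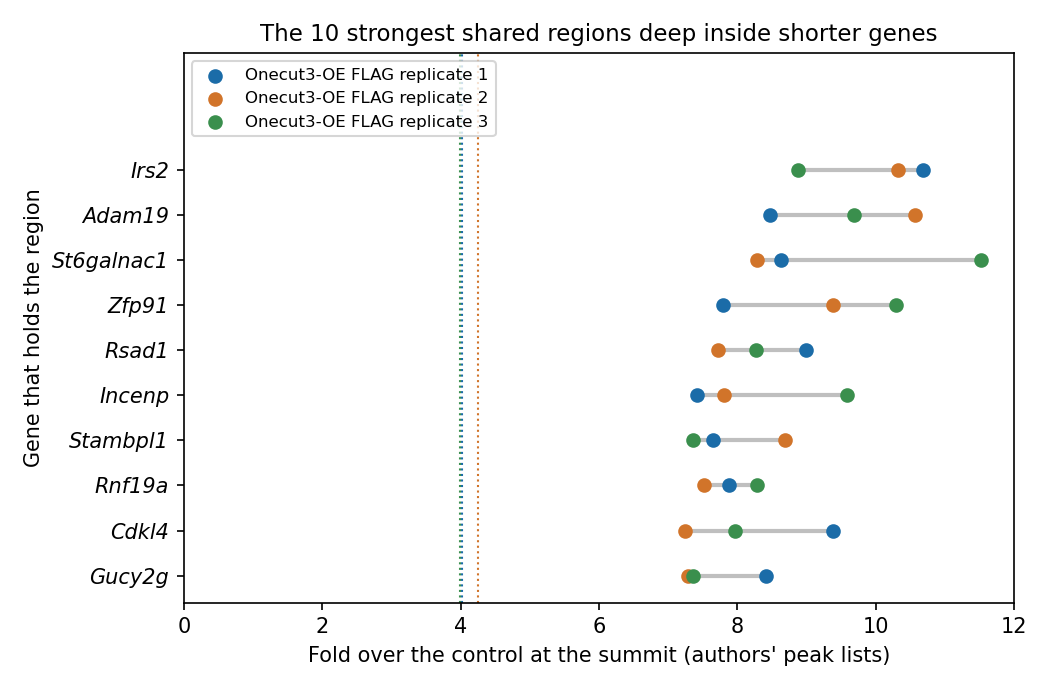
Each row is 1 of the 10 members with the highest mean rank of fold, with 1 circle for each replicate on a linear axis of the fold, and the dotted lines mark the median fold of all 697 members in each replicate. The 10 members run from 7.24 to 11.5, above the medians of 4.03, 4.25 and 3.99.

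Chromosome 19 held more members for its size than any other chromosome. It had 58 in 9.62 Mb of deep territory of shorter genes, or 6.03 per Mb, while the other autosomes ran from 1.00 to 3.20 with a median of 2.19. Deep regions of longer genes were likewise dense there, at 6.77 per Mb. The background of the members on chromosome 19 was above the floor in 91.4%, 89.7% and 94.8% of them in replicates 1, 2 and 3, against medians of 42.0%, 39.2% and 44.2% on the other autosomes, and the part of this in the density was not tested. X held 3 members, in Map7d2, Gm14569 and Rbmx2, or 0.247 per Mb.

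**Figure D3:**
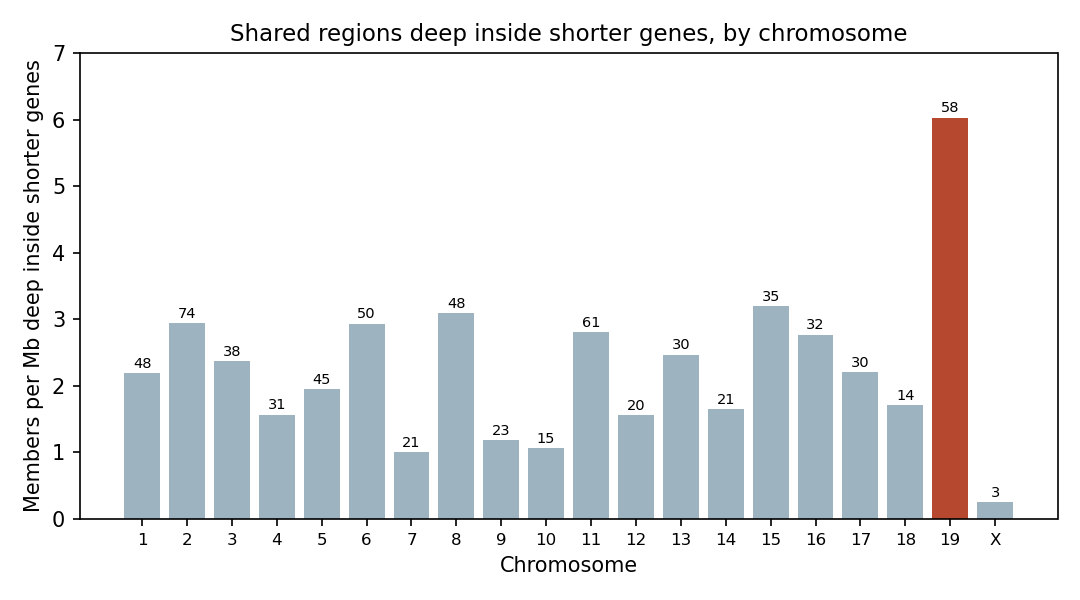
Bars give the number of members per Mb of deep territory of shorter genes on each chromosome, and the digits on each bar give the number of members. Chromosome 19 (6.03 per Mb) stands above the other autosomes (1.00 to 3.20), and X is lowest at 0.247.

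Counted per Mb, deep territory held fewer shared regions than the zones at gene ends. The deep territory of shorter genes came to 319.0 Mb and held 2.19 shared regions per Mb, that of longer genes 594.6 Mb and 2.24, and the zones at gene ends 211.3 Mb and 4.39. In the single lists the number of peaks per Mb deep inside shorter genes was 13.0, 5.46 and 10.4 (9.62 ± 3.82, SD, n = 3), and deep inside longer genes 13.9, 5.59 and 10.7. The ratio of shorter to longer genes was 0.936, 0.977 and 0.972, a mean log2 ratio of -0.06 ± 0.03 (SD, n = 3). It was below 1 in 3 of 3 replicates, with p = 0.25 in a two-sided exact sign-flip permutation test, the smallest p that 3 replicates allow, so the design cannot reach 0.05. The mean ratio was above 1 under other settings, at 1.13 for peaks with a fold of at least 5, 1.02 with gene ends at 10 kb and 1.06 with a span limit of 200 kb. The zones at gene ends were denser than the deep territory of shorter genes by 1.39, 1.69 and 1.41 times, again with the smallest possible exact p of 0.25.

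Within shorter genes the density was also set out by the span of the gene. There were 2.00 per Mb in genes under 25 kb, 2.28 from 25 to 50 kb, 2.00 from 50 to 75 kb and 2.41 from 75 to 100 kb, and 2.59 just past the limit, from 100 to 200 kb. Only genes of 500 kb and more fell below, at 1.59. In the single lists, genes of 75 to 100 kb had more peaks per Mb than genes under 25 kb in 3 of 3 replicates, with 14.7 against 11.3 in replicate 1, 6.32 against 4.87 in replicate 2 and 11.5 against 9.60 in replicate 3, a difference that was not tested. Of the peaks deep inside shorter genes, 16.9%, 40.3% and 21.0% of the lists of replicates 1, 2 and 3 were in shared regions, close to the 16.2%, 40.2% and 20.9% deep inside longer genes and below the 24.5%, 47.8% and 30.0% at gene ends. In all, 4822 regions deep inside shorter genes were in 1 list, 1141 in 2 and 697 in 3. Those in 1 list had median folds of 3.03, 3.35 and 3.13.

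**Figure D4:**
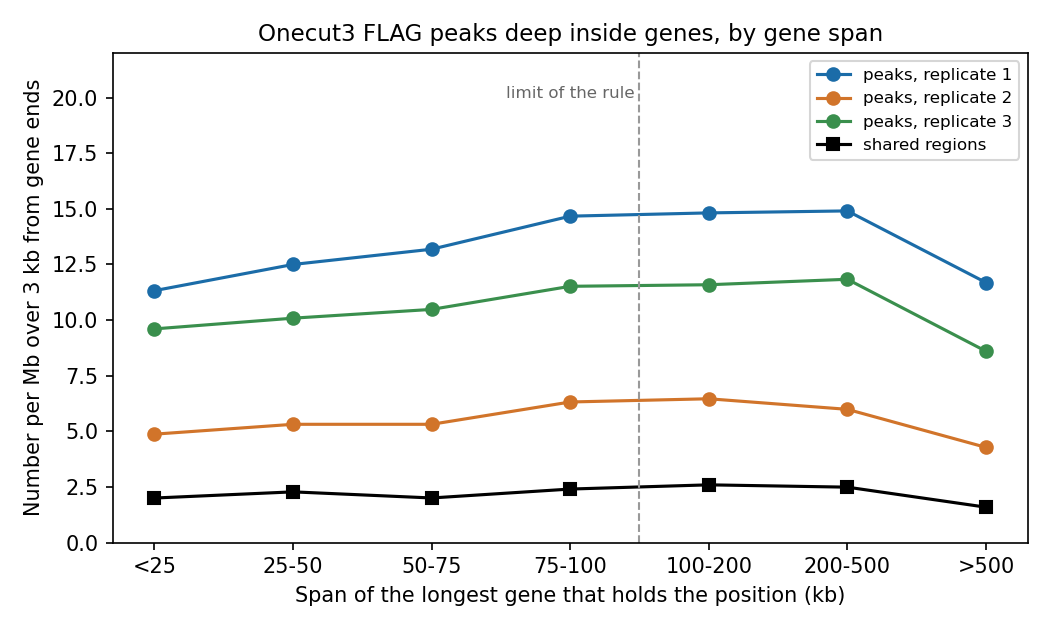
Lines give the number of peaks of each replicate, and of shared regions (black squares), per Mb of gene territory more than 3 kb from gene ends, by the span in kb of the longest gene at the position. Shared regions stay between 2.00 and 2.41 per Mb below 100 kb, where the dashed line marks the limit of the rule.

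The 697 members lay in 647 of 13446 eligible shorter genes, those under 100 kb with any position more than 3 kb from a gene end (4.81 percent). Most genes held 1 member (595), 51 held 2, and Stk4 alone held 3. The distance between members of 1 gene was a median of 9.92 kb, from 0.833 kb in Pelp1 to 53.1 kb in Bcl9. The share of genes with a member rose with span, as the territory did, from 1.53% under 25 kb to 6.15%, 10.0% and 16.6% in the next classes. The zone at one of the gene's ends was touched by some shared region in 69 host genes (10.7%) and in 746 of the other eligible genes (5.83%). Members placed just inside the limit overlap that zone themselves, as in Cenpt, Rnf19a and St6galnac1. Such a member can count for its own host, which only host genes can gain from. The contrast is therefore partly built into the rule, and no second region is implied. By class of span the shares were 16.1% against 5.75% under 25 kb, 10.2% against 5.65% from 25 to 50 kb, 7.55% against 5.75% from 50 to 75 kb and 10.6% against 7.54% from 75 to 100 kb, and the difference was not tested. Other annotation was sparse, since 42 members overlapped an lncRNA gene, 3 a pseudogene and none of them 1 of the 1005 miRNA hairpins of the RefSeq table.

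In the Hippo pathway, kinases hold back growth by keeping the cofactors YAP and TAZ out of the nucleus. Of its 19 eligible genes, 5 had a member (26.3%, against 4.81 percent of all eligible genes), with 8 regions or 10.9 per Mb. The chromosomal passenger complex, with 1 region in little territory, was the denser list at 29.3 per Mb. The Hippo list was written with earlier results of these data known and its count was not tested. When a region needed only 2 lists, 5, 6 and 7 of the 19 Hippo genes had one without replicates 1, 2 and 3. The counts were 6, 7 and 5 of 41 chromatin regulators and 5, 8 and 6 of 35 actin and adhesion genes. The Hippo list thus did not lead by count in every case, but it is shorter, and its share was above theirs each time. A region in all 3 lists is kept when 2 are enough, so the 5 Hippo genes were nearly bound to recur. These counts are therefore no check on the Hippo list. Some other lists reached or passed it by count or share. Without replicate 2 the chromosomal passenger complex had 2 of 4 and receptor tyrosine kinases 7 of 39. Without replicate 3, TGF-beta and BMP signalling had 7 of 32. Of all eligible genes, 6.09%, 8.53% and 6.61% had a region without replicates 1, 2 and 3. Nf2, the membrane-bound upstream activator of the kinases (merlin), had 2. The stronger one (chr11:4833280-4833669) had folds of 6.44, 5.93 and 7.12 in replicates 1, 2 and 3, ranked 23 among members, and touches the Nf2 promoter window without its summits falling inside. The other had 3.33, 3.35 and 2.85. Stk4, the kinase MST1 at the top of the cascade, had 3 regions along 81.4 kb, at chr2:164139721-164140073 (5.75, 5.57 and 6.37), chr2:164126758-164127294 (5.37, 4.64 and 4.37) and chr2:164092768-164093152 (3.94, 4.18 and 2.87). In Stk4 and in Nf2 the strongest region had its folds above those of the weaker ones in every replicate. The strongest was chosen by the rank of these same folds, so this order is largely built in.

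Further down the same cascade, Mob1b, the coactivator of the LATS kinases, had folds of 3.94, 4.46 and 3.82. Lats2, the kinase that phosphorylates YAP, had 3.33, 5.29 and 4.14, and Tead3, a DNA-binding partner of YAP, had 3.52, 3.51 and 3.66. By rank of fold they were 295 (Mob1b), 357 (Lats2) and 485 (Tead3) of 697.

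In the other signalling lists the shares were lower. TGF-beta and BMP signalling had 4 of 32 (12.5%), among them Ski, a corepressor of SMADs (6.36, 4.18 and 5.41), Smurf1, a ubiquitin ligase for SMADs and receptors (5.48, 6.36 and 3.91), and the inhibitory Smad6 (3.56, 3.36 and 3.70). Wnt signalling had 3 of 29 (10.3%): Rnf43, which removes Frizzled receptors from the surface (5.45, 5.01 and 3.82), the secreted inhibitor Sfrp1 (3.63, 3.87 and 3.82) and the R-spondin receptor Lgr4 (3.33, 4.73 and 3.18). Receptor tyrosine kinases and their feedback had 3 of 39 (7.69%), namely Dusp5, a nuclear ERK phosphatase, Dusp10, a phosphatase of JNK and p38, and Sos1, a Ras exchange factor. Dusp5 had the largest SD of the fold of all members, with folds of 4.30, 6.76 and 10.9 from 19, 41 and 47 fragments, so that replicate 3 was over 2 times replicate 1. No gene of the 12 eligible ones of the AP-1 and immediate early list had a member.

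Structural and nuclear lists followed. Actin cytoskeleton and focal adhesion had 4 of 35 (11.4%), with Myh9, a non-muscle myosin heavy chain (3.33, 4.65 and 4.46), Itgav, the integrin alpha V chain (3.88, 3.42 and 3.94), Flnc, filamin C (4.04, 3.63 and 3.10), and Anxa2. The last ranked 676 of 697, with 3.26, 2.04 and 2.49. Chromatin regulators had 4 of 41 (9.76%), among them Kdm5b, a histone H3 demethylase (5.06, 5.72 and 5.92), the SWI/SNF subunit Arid1a (3.33, 5.29 and 6.69), and the acetyltransferase Kat6a (3.94, 5.29 and 3.50). Fibroblast and extracellular matrix genes, the tissue list of these cells, had 2 of 44 (4.55%), Adamts5 and P4ha3. Nuclear receptors and circadian factors had 1 of 28, the retinoic acid receptor Rara, whose folds of 6.95, 5.39 and 5.07 placed it 63 of 697.

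The mitotic lists were near the level of all genes apart from Incenp. Chromosome segregation and mitosis had 3 of 59 (5.08%). Cenpt, with the internal promoter shown above, was also the member nearest to the 3 kb limit, at 3.02 kb, and lost its place among the members without replicate 2. Smc3, a cohesin subunit, had 3.36, 5.90 and 3.24, and Kif11, the kinesin that pushes spindle poles apart, had 2 members of 3.21, 3.49 and 3.39 and of 2.69, 3.33 and 5.30. Both lie on chromosome 19. DNA replication and G1/S had 1 of 32, the origin recognition subunit Orc1 (5.15, 5.01 and 3.18). The chromosomal passenger complex had 1 of 4, and 2 of 4 without replicate 2, where the share of all eligible genes also rose, from 4.81 to 8.53 percent. The list of CUT and other homeobox genes had 0 of 25, and 3 of 25 at that setting without replicate 2. It mixes the CUT family of Onecut3 with other homeobox genes, so this is not a count for that family alone. It does not hold every homeobox gene, since Hoxa3, outside the list, had 2 members.

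The listed genes typical of other cell types held no member: 0 of 24 hepatocyte, 0 of 17 neuronal, 0 of 16 blood cell, 0 of 15 endothelial, 0 of 14 skeletal muscle and 0 of 12 adipocyte genes. Genes outside these short lists were not counted. Pooled, this is 0 of 98 genes, which allows a share of up to 3.06% (3 counts of the total), beside 4.81 percent of all eligible genes. The zeros rest on the need for all 3 lists. Without replicate 1, 1 hepatocyte and 2 endothelial genes had a region. Without replicate 2 it was 2 hepatocyte, 1 neuronal and 1 skeletal muscle gene, and without replicate 3, 2 neuronal and 1 skeletal muscle gene. The shares of all eligible genes without replicates 1, 2 and 3 were 6.09%, 8.53% and 6.61%. The genes of the 6 lists have little room, at 1.90 Mb of deep territory in all. Over the 496 eligible listed genes together, 31 (6.25%) had a member, with 2.44 regions per Mb against 2.19.

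**Figure D5:**
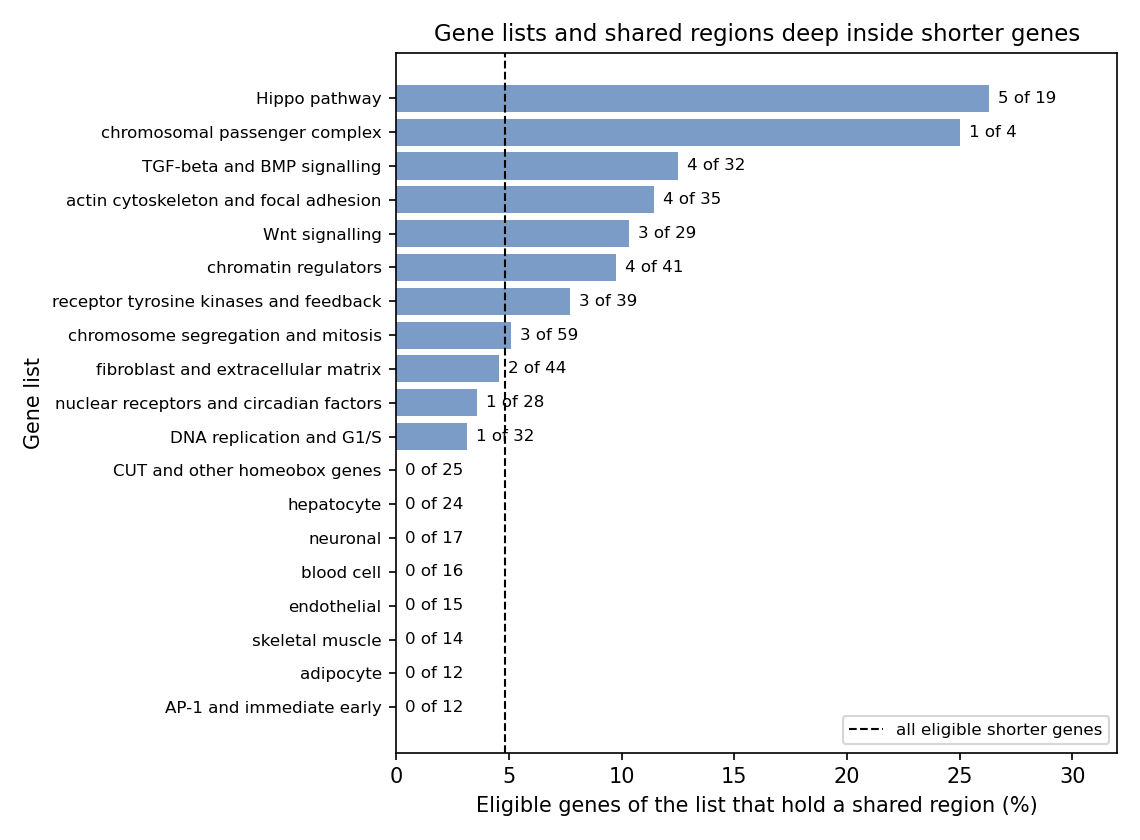
Bars give the percent of the eligible genes of each list that held at least 1 member, with the number of genes beside each bar, and the dashed line is the 4.81 percent of all eligible shorter genes. Hippo pathway genes (5 of 19) reach furthest right, and the 6 lists of other cell types hold none.

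The limits of the rule cut through a continuous range. Just outside the 3 kb limit was a region in Klf3 with folds of 4.84, 4.73 and 8.28, against 5.28, 3.79 and 6.79 at Cenpt inside it. At the 100 kb limit, the region in Vmp1, a gene of 99.979 kb, had 3.45, 3.45 and 3.45, and that in Sestd1, of 100.288 kb, had 8.16, 6.30 and 4.30. Members with the highest background were picked for mention after their values were seen. In Vps45 the folds were 1.85, 1.82 and 1.60 over a background of 48.2, 52.0 and 53.5 fragments. Sfi1 had 2 members. The one with the higher background had 138, 154 and 136 fragments at the summit over a background of 52.6, 56.3 and 48.7, and its folds were low, at 2.59, 2.61 and 2.75.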

How the data were processed

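ChIP-Seq peaks of the 3 Onecut3-OE FLAG replicates were analysed. Per the submitters' processing notes, GRCm38 was the build and the tools included MACS2 2.1.0, Bowtie2 2.2.6 and deepTools 3.3.2, while the study's methods name MACS for peak calling. How reads were filtered is not given in the sources used here. The peak lists deposited by the authors give a score, a fold (a ratio over background), a −log10 p-value and a −log10 q-value for each peak, and their names point to calling per sample against the input. Fragments and background at each summit were solved from the authors' fold and p-value, within 0.001 in −log10 p, for 99.99%, 100.0% and 99.96% of peaks in replicates 1, 2 and 3, after scaling the pileup of replicate 2 by 0.9645. Relative depth was taken from the background floor and is an inference. Folds depend on depth and local background, so they were ranked within a list, and their spread over the 3 lists is a description.

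Peaks were merged at an overlap of at least 1 bp and placed by RefSeq gene spans of GRCm38.p6 (21883 protein-coding genes). No genome sequence was used here, so the planned word search around summits was run, in its place, in RefSeq promoter windows (none on chromosome 18, where 14 members lie), and exons were not used. Strand was known for 78.8% of host genes, under the minimum set for such a check, so place along the gene was not analysed. The only test was an exact sign-flip permutation over 3 replicates. Intervals are exact binomial, the limit beside a count of 0 is 3 counts of the total, and both cover counting error only.

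The members and the 19 gene lists (742 entries, 3 symbols not found) were chosen with earlier results of these data known. Named are the genes of the 10 members with the highest mean rank of fold, up to 3 genes a list by their best member, genes with at least 4 members, the genes the study names, and the members nearest to each limit. Further list genes, the genes of internal promoters, of members on X, of pairs and of high background were named after their values were seen. The values of some genes are not reported here. Alternatives were a q of at most 0.05, a fold of at least 5, overlap of at least 50% of both peaks, summits within 100 bp, leaving out each replicate, gene ends at 1 and 10 kb and span limits of 50 and 200 kb. Alternatives without chromosome 19, without high background and for single words were chosen after seeing the data. The scripts were tested on simulated data. Scripts ran under Python 3.11.15 with scipy 1.17.1, pandas 2.3.3, numpy 2.4.6 and matplotlib 3.10.9.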

Additional observations from a re-analysis of the deposited data

How the results depend on the processing

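With a q of at most 0.05, 398 members remained, in 2.86% of eligible genes and 3.23% of listed genes, and with a fold of at least 5, 67, which were 14.8% of the shared regions and lay in 0.491% of eligible and 1.01% of listed genes. At a fold of at least 5 the ratio of shared regions per Mb in shorter over longer genes was 1.44, and that of peaks per Mb in the single lists turned from 0.961 to 1.13. The latter was also above 1 with gene ends at 10 kb (1.02) and with a span limit of 200 kb (1.06). The cause was not tested. With overlap of 50% of both peaks 3.92% of eligible genes held a region, and with summits within 100 bp 3.53%. With gene ends at 1 kb the members were 16.8% of shared regions. With gene ends at 10 kb 418 members were left, 8.20% of shared regions and in 5.22% of eligible genes. With span limits of 50 and 200 kb there were 351 and 1172 members, 6.88% and 23.0% of shared regions and in 3.09% and 6.81% of eligible genes, and the ratio per Mb was 1.12 at 200 kb. These counts move because fewer or more regions pass.

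Leaving out a replicate, so that 2 lists were enough, gave 909 to 1320 members, 13.6% to 14.0% of shared regions, a ratio per Mb of 0.978 to 0.987 for shared regions and of 0.954 to 0.974 for single lists, 35.9% to 40.9% of each list's deep peaks, 6.09% to 8.53% of eligible genes and 8.47% to 13.3% of listed genes. The highest counts came without replicate 2, the shortest list (1320 members), and 695 of the 697 members were kept without each of the replicates. Without replicate 2 the word was in 53.8% of the internal promoter windows in place of 66.7%. With all replicates, ATCGAT alone was in 22.2%. Without chromosome 19 there were 639 members and a ratio per Mb of 0.972, and without backgrounds over 5 fragments 663. Of the 5 Hippo genes, 4 held a region at a q of at most 0.05 and 2 at a fold of at least 5.

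No paired analysis was possible because the other groups have 1 library each with no peak list used here, and the result is not a contrast between groups. The planned windows of 50 and 200 bp around summits were not run, since no genome sequence was used here. At a median of 13 to 16 fragments, weaker sites could not be detected in every list, so absence from a list is not absence of binding.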

Other observations

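The 5 Hippo genes came with the following distances to the nearer gene end: 16.1 and 21.8 kb for the regions of Nf2, 15.6, 28.5 and 18.8 kb for those of Stk4, 12.4 kb for Mob1b, 22.9 kb for Lats2 and 8.81 kb for Tead3. Members of shorter genes were spread thinly along the genome, with a median of 93.3 kb to the next shared region and 10.0% within 10 kb of one, beside 90.2 kb and 11.8% for deep regions of longer genes. Of the 697 members, 13 were among the 100 strongest shared regions by rank of fold.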
